A study of Rattus norvegicus with 484 samples.

Results

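Bmal1 and Per1 are core genes of the circadian clock, and both were measured here in rat soleus, quad, liver and EDL after treatment with PPAR agonists or retinoic acid. They are 2 of 10210 named genes, within 18603 features that also count probes with no single gene name. Each was found by its platform symbol, carried 1 probe and had a value on all 484 arrays. Bmal1 (older symbol Arntl, gene ID 29657, probe 10020291515) lies on chromosome 1 at chr1:176766222-176864741 in the GRCr8 assembly. Per1 (gene ID 287422, probe 10011847336) lies at chr10:54299002-54313804. Both genes were chosen by their measured differences between compound and vehicle arrays of soleus, quad and liver, so those differences are given below as a description, with no test.

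The clock is a feedback loop of transcription that runs in nearly every cell. BMAL1 pairs with CLOCK or NPAS2 and activates genes that carry E-boxes, among them the Per and Cry genes, whose proteins return to block the activator pair. A second loop sets the rhythm of Bmal1 itself: ROR receptors activate it and REV-ERB receptors (Nr1d1, Nr1d2) repress it through a shared response element. In muscle and liver Bmal1 and the Per genes are known to peak at opposite phases of the day, and Per1 is also known as a target of glucocorticoid and CREB signalling. PPARA is known to bind the Bmal1 promoter in mouse liver.

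On each array, RNA of 1 rat (Cy5) was set against a pool (Cy3) made from vehicle rats, matched by tissue and day, with 10 to 16 rats in a pool. Rats received fenofibrate at 400 mkd, bezafibrate at 250 mkd, Wy-14643 at 100 mkd (3 PPARA agonists), rosiglitazone at 100 mkd (a PPARG agonist), retinoic acid at 25 mkd, or vehicle, with the doses in the unit of the labels, and tissues were taken on days 2 to 6. EDL came from rats at lower doses (fenofibrate 50, bezafibrate 25, Wy-14643 10, rosiglitazone 10 and retinoic acid 2.5 mkd) on days 3 to 6, plus rosiglitazone at 100 mkd on day 4, and had no arrays of single vehicle rats. The strain, sex and age of the rats and the time of day at sampling are not given in the sources used here. Soleus had 19 fenofibrate, 20 bezafibrate, 18 Wy-14643, 20 rosiglitazone and 20 retinoic acid arrays and 35 vehicle arrays. Quad had 18, 20, 16, 16 and 18 treated arrays in that order and 63 vehicle arrays, and liver had 14, 15, 15, 15 and 15 treated arrays and 73 vehicle arrays. EDL had 9 fenofibrate, 9 bezafibrate, 12 Wy-14643, 9 rosiglitazone (10 mkd), 11 retinoic acid and 4 rosiglitazone (100 mkd) arrays. The 484 arrays came from 230 rats, so 1 rat often gave several tissues.

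Values are log2 ratios of the rat over its pool. A ratio to a pool of the same tissue holds no level, so the labelled tissues could not be checked against the levels of their marker genes, and the levels of Bmal1 and Per1 were not compared between tissues. In whole tissue, fewer cells of a type and less RNA per cell cannot be told apart. On 8 arrays the spread over all features was more than 3 times that of the tissue, or markers of the other tissue kind exceeded those of same-day arrays by over 2 on the log2 scale. They were 3 soleus vehicle, 1 quad vehicle, 1 quad fenofibrate, 1 quad bezafibrate, 1 quad retinoic acid and 1 liver rosiglitazone array. They were kept, and leaving them out moved the members' differences from vehicle most for fenofibrate in quad, as given beside the results.

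The promoter window of Bmal1 is shown because its response element of the second loop is the sequence through which ROR and REV-ERB receptors are known to act. RefSeq's window on GRCr8, from 250 bases before to 50 bases after the start, spans chr1:176766078-176766377 on the plus strand. The capitals mark TAGGTCA, the core of the ROR and REV-ERB element.
Bmal1: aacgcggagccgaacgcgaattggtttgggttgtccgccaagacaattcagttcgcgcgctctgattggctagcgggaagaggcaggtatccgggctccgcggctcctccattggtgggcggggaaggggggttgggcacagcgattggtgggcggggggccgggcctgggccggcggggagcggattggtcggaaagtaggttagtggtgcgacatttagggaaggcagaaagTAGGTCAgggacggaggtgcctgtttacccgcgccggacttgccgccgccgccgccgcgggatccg

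The core began at base 235 of the window, 16 bases before RefSeq's start. The window begins at -144 from the first base of the gene record, so the core and that start both lie inside the record. Searched on both strands, the core occurred in 880 of 33469 rat promoter windows (2.63%). The nuclear receptor half-site AGGTCA, which the core contains, occurred in 16.2% of windows. These letters did not occur in the Bmal1 window for the E-box CACGTG (6.42% of windows), for AGGTCA as a direct repeat with 1 base between (the PPAR type, 0.054%), for the D-box forms TTACGTAA (0.12%) and TTATGTAA (0.893%), or for the CRE in its full form TGACGTCA (1.83%) or part form TGACG (21.2%). None of these motifs occurred in the RefSeq window of Per1, chr10:54304126-54304425 on the plus strand, which begins 5124 bases inside the gene record. The bases around and before the first base of the Per1 record were not searched. This result thus does not describe a promoter at that end of the gene. A match here is a description of letters and not of a bound site.

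Bmal1 stood above vehicle in soleus with each of the 5 compounds. With bezafibrate its ratio to the pool ran from -0.91 through a median of 1.08 to 2.61, and with rosiglitazone from -0.56 through 0.76 to 1.91. With Wy-14643 it ran from -0.72 through 0.44 to 2.61, with fenofibrate from -1.62 through 0.33 to 1.81, and with retinoic acid from -1.39 through 0.15 to 2.45. In vehicle soleus it ran from -2.39 through -0.56 to 1.51. The ranges overlapped, but every treated median lay above the vehicle median. Set against the vehicle mean of the same day, 19 of 20 bezafibrate, 18 of 20 rosiglitazone, 18 of 18 Wy-14643, 15 of 19 fenofibrate and 14 of 20 retinoic acid arrays were higher. The mean difference from vehicle, with days weighted equally, was 1.52 ± 0.27 (SE) for bezafibrate, 1.16 ± 0.27 for rosiglitazone, 0.91 ± 0.28 for Wy-14643, 0.75 ± 0.27 for fenofibrate and 0.72 ± 0.27 for retinoic acid. Against the pool in place of the single vehicle rats these values were 1.03, 0.68, 0.42, 0.26 and 0.23 in the same order, since 25 of 35 vehicle arrays themselves lay below their pool, at a mean of -0.54 ± 0.99 (SD). Over all features, 0.904% were called for bezafibrate, 2.63% for rosiglitazone, 0.191% for Wy-14643, 3.33% for fenofibrate and 2.85% for retinoic acid in soleus, at an adjusted p of at most 0.05 (limma, Benjamini-Hochberg).

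In quad Bmal1 also stood above vehicle, most with rosiglitazone and least with fenofibrate. Bmal1 ran from 0.22 through 1.16 to 2.08 with rosiglitazone, and from -0.89 through 0.95 to 2.53 with bezafibrate. The medians with Wy-14643 (-0.00), retinoic acid (0.30) and fenofibrate (-0.02) lay nearer to that of vehicle, where Bmal1 ran from -1.88 through -0.08 to 1.55. All 16 rosiglitazone arrays were above the vehicle mean of their day, as were 17 of 20 bezafibrate, 10 of 16 Wy-14643, 12 of 18 retinoic acid and 10 of 18 fenofibrate arrays. The mean differences from vehicle were 1.19 ± 0.24 for rosiglitazone, 0.85 ± 0.21 for bezafibrate, 0.43 ± 0.24 for Wy-14643, 0.34 ± 0.23 for retinoic acid and 0.14 ± 0.22 for fenofibrate. Without the arrays in doubt the fenofibrate difference was 0.26, and against the pool it was 0.03, so it stayed close to 0 in each. In quad, 6.86% of all features were called for rosiglitazone, 1.63% for bezafibrate, 0.0163% for Wy-14643, 2.42% for retinoic acid and 5.69% for fenofibrate.

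In liver Bmal1 varied more than in either muscle. It ran from -1.41 through 0.26 to 2.69 with rosiglitazone, from -2.20 through 0.07 to 2.87 with bezafibrate and from -2.77 through -0.98 to 1.38 with fenofibrate. With retinoic acid it ran from -1.75 through -0.59 to 2.93 and with Wy-14643 from -1.85 through -0.20 to 2.38, against -2.47 through -0.75 to 2.63 in vehicle liver. All these ranges overlapped widely. Rosiglitazone arrays were above the vehicle mean of the day in 12 of 15, Wy-14643 arrays in 9 of 15, bezafibrate arrays in 8 of 15, retinoic acid arrays in 7 of 15 and fenofibrate arrays in 5 of 14. The mean difference was 1.02 ± 0.34 for rosiglitazone, 0.58 ± 0.34 for retinoic acid, 0.51 ± 0.34 for bezafibrate, 0.40 ± 0.34 for Wy-14643 and -0.36 ± 0.35 for fenofibrate, the only negative value among the 15 of Bmal1. Against the pool these became 0.52, 0.07, 0.00, -0.11 and -0.87, since vehicle livers averaged -0.50 ± 1.09 (SD, n = 73) against their own pool. Liver responded widely to each compound: 22.7% of features were called for rosiglitazone, 29.2% for retinoic acid, 21.3% for bezafibrate, 40.2% for Wy-14643 and 37.0% for fenofibrate.

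**Figure D1:**
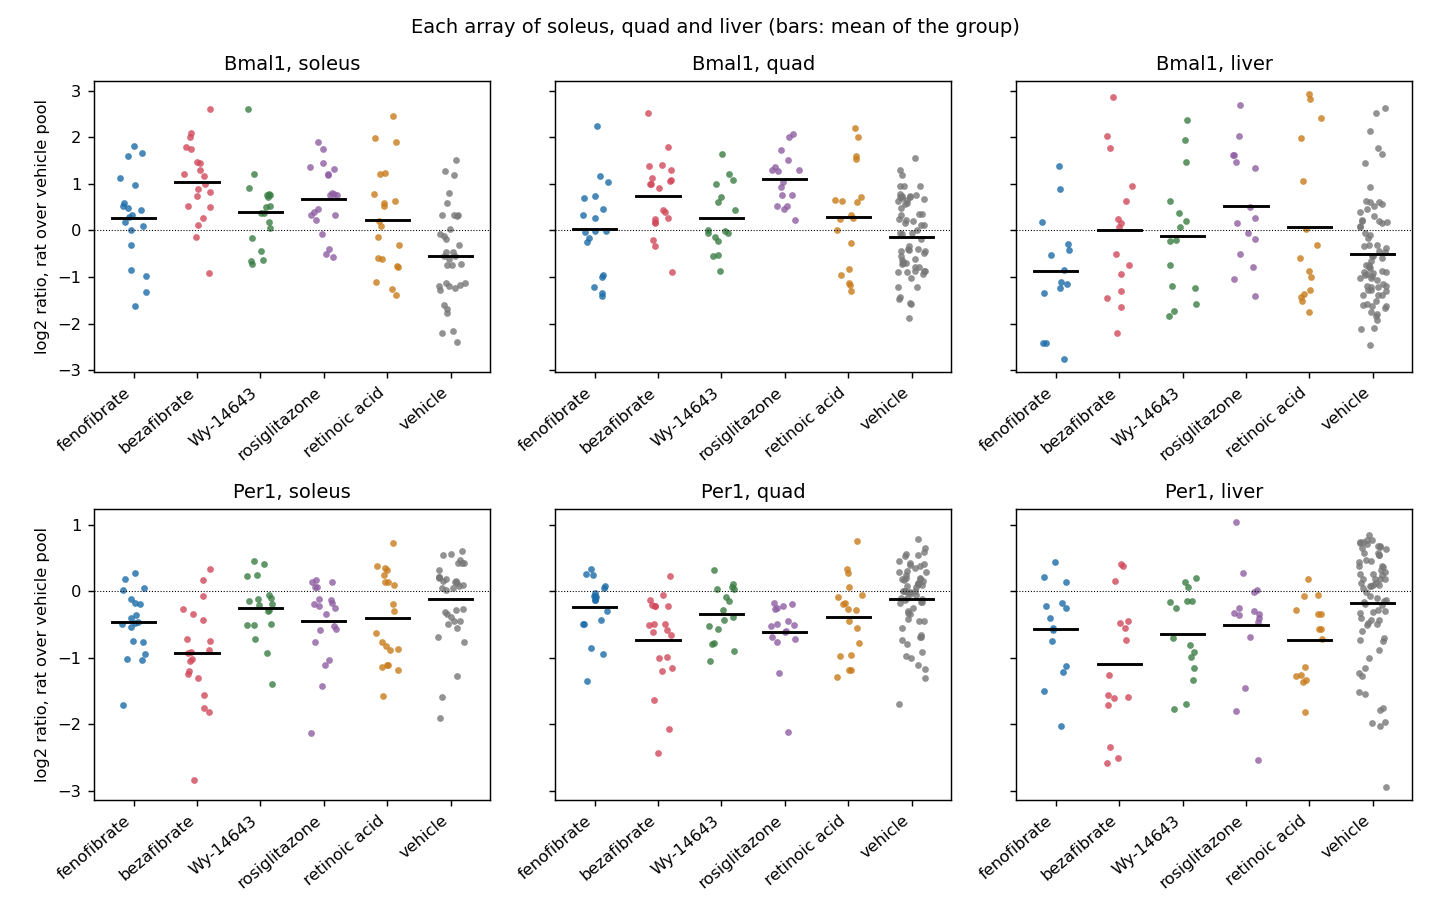
Each point is 1 array, with the log2 ratio of the rat over its vehicle pool on the y axis and the compounds, then vehicle, on the x axis; bars mark group means. Bmal1 is in the upper row and Per1 in the lower, and vehicle livers run from -2.47 to 2.63 for Bmal1 and from -2.94 to 0.84 for Per1.

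Per1, the repressor gene of the pair, had a negative mean difference from vehicle in all 15 comparisons. As for Bmal1, the compounds of a tissue share vehicle arrays and many rats gave several tissues, so these comparisons are not independent. In soleus Per1 ran from -2.83 through -0.92 to 0.34 with bezafibrate and from -1.70 through -0.47 to 0.28 with fenofibrate. With rosiglitazone it ran from -2.13 through -0.24 to 0.16, with retinoic acid from -1.58 through -0.46 to 0.73 and with Wy-14643 from -1.39 through -0.19 to 0.45. In vehicle soleus it ran from -1.90 through 0.07 to 0.61. Every treated median was below the vehicle median, with bezafibrate lowest. The number of arrays below the vehicle mean of the day was 18 of 20 for bezafibrate, 16 of 19 for fenofibrate, 13 of 20 for rosiglitazone, 11 of 20 for retinoic acid and 12 of 18 for Wy-14643. The mean differences were -0.80 ± 0.17, -0.35 ± 0.17, -0.32 ± 0.17, -0.28 ± 0.17 and -0.15 ± 0.18 in that order. Without the 3 soleus vehicle arrays in doubt they were -0.85, -0.41, -0.38, -0.34 and -0.20, and against the pool -0.93, -0.48, -0.45, -0.41 and -0.28.

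The same sign held for Per1 in quad and liver. In quad it ran from -2.42 through -0.55 to 0.23 with bezafibrate and from -2.11 through -0.52 to -0.18 with rosiglitazone, against -1.69 through 0.00 to 0.78 in vehicle quad. All 16 rosiglitazone quads were thus below the pool. The differences from vehicle in quad were -0.60 ± 0.14 for bezafibrate, -0.46 ± 0.16 for rosiglitazone, -0.26 ± 0.15 for retinoic acid, -0.23 ± 0.15 for Wy-14643 and -0.15 ± 0.14 for fenofibrate. Arrays below the vehicle mean of the day numbered 16 of 20 for bezafibrate, 13 of 16 for rosiglitazone, 12 of 18 for retinoic acid, 11 of 16 for Wy-14643 and 8 of 18 for fenofibrate. The fenofibrate value in quad was -0.24 without the arrays in doubt and -0.28 against the pool, so it stayed negative in each. In liver Per1 ran from -2.58 through -1.26 to 0.41 with bezafibrate and from -1.81 through -0.56 to 0.19 with retinoic acid, against -2.94 through 0.08 to 0.84 in vehicle liver. The liver differences were -0.92 ± 0.23 for bezafibrate, -0.55 ± 0.23 for retinoic acid, -0.47 ± 0.23 for Wy-14643, -0.36 ± 0.24 for fenofibrate and -0.33 ± 0.23 for rosiglitazone. Below the vehicle mean of the day were 12 of 15 bezafibrate, 12 of 15 retinoic acid, 9 of 15 Wy-14643, 10 of 14 fenofibrate and 11 of 15 rosiglitazone livers. Bezafibrate thus gave the lowest mean difference of Per1 among the 5 compounds in each of the 3 tissues, and leaving out the doubted liver array made the rosiglitazone difference -0.43. Single rats recur across the tissues. Bezafibrate rat 1265 had Per1 ratios to the pool of -2.83, -2.42 and -2.51 in soleus, quad and liver. Rat 1271 had -1.76, -1.63 and -2.58 in the same order. The order of the compounds without these rats was not computed.

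Neighbouring compounds mostly lay within the spread between rats, while some pairs farther apart did not. With the compounds placed by their difference from vehicle in each tissue, 24 pairs of neighbours arose over both genes, and the 95% interval of the difference between neighbours held 0 in 23. The exception was Per1 in soleus, where fenofibrate stood 0.45 above bezafibrate (95% interval 0.07 to 0.82). Over all 60 pairs of compounds, 15 intervals lay apart from 0. These intervals were not adjusted for their number. They carry no weight as tests, since the choice of the genes used these arrays. The share of such intervals over all features is not given here. For Per1 in soleus the intervals apart from 0 were those of the 4 pairs with bezafibrate, whose difference from Wy-14643 was -0.65 (-1.03 to -0.27). For Bmal1, fenofibrate minus rosiglitazone was -1.05 (-1.63 to -0.47) in quad and -1.39 (-2.27 to -0.51) in liver. No pair was apart from 0 for Per1 in liver. An interval that holds 0 does not show that 2 compounds act alike.

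**Figure D2:**
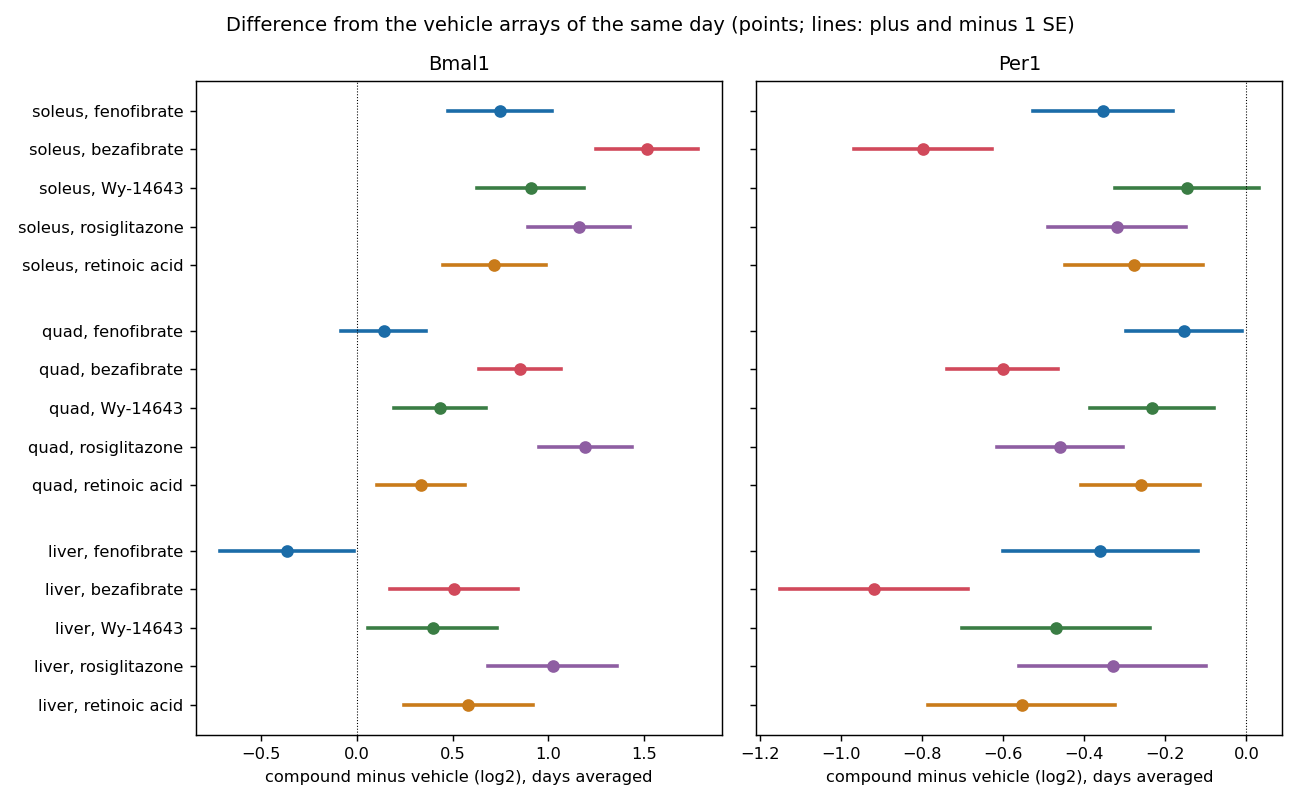
Points are the difference between compound and vehicle arrays (log2, x axis), averaged over days 2 to 6, for each tissue and compound down the y axis; lines are plus and minus 1 SE. Bmal1 differences lie from -0.36 to 1.52 and all 15 Per1 differences lie below 0, the lowest at -0.92 for bezafibrate in liver.

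Day by day, the direction was more regular in muscle than in liver for Bmal1. Of 75 groups of 1 tissue, compound and day, the Bmal1 mean was above the vehicle mean of the day in 60, namely 23 of 25 in soleus, 21 of 25 in quad and 16 of 25 in liver. The Per1 mean was below it in 65 of 75, namely 20 of 25 in soleus, 22 of 25 in quad and 23 of 25 in liver. Groups of 1 tissue and day share their vehicle arrays and many rats gave several tissues, so these groups are not independent. A group holds 2 to 4 rats, and most groups overlapped the vehicle arrays of their day. Groups without overlap numbered 3 of 75 for each gene: 2 of 25 in soleus and 1 of 25 in quad for Bmal1, and 3 of 25 in soleus for Per1. Over all features, 2.46% of the pairs of a feature and a day group had no overlap in soleus, 1.03% in quad and 5.85% in liver, where neither Bmal1 nor Per1 had any. On day 5 in soleus, Bmal1 was 0.99, 1.30, 1.44 and 1.79 with bezafibrate and 0.33, 0.41, 0.75 and 1.75 with rosiglitazone, while the 4 vehicle arrays reached from -1.70 to 0.33. On the same day Per1 was -2.83, -1.05, -0.92 and -0.74 with bezafibrate and -2.13, -1.42, -1.04 and -0.76 with rosiglitazone, while vehicle reached from -0.34 to 0.16. These are the same rats, so day 5 in soleus gave both the highest group means of Bmal1 against vehicle among the bezafibrate days and the lowest of Per1. The other groups without overlap were Bmal1 in quad with rosiglitazone on day 2 (1.27 and 1.31, against up to 1.19 in vehicle) and Per1 in soleus with bezafibrate on day 2 (-1.20, -0.92, -0.89 and -0.71, against down to -0.49 in vehicle).

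In soleus the Bmal1 difference was smaller on day 6 than on day 5 with each of the 5 compounds. All 5 were set against the same 4 vehicle arrays on each of these days, and 1 of those of day 5 was in doubt. These changes are thus not independent, and the part of the vehicle arrays in them was not tested. The Bmal1 difference with bezafibrate was 1.42, 1.54, 1.82, 2.34 and 0.45 on days 2, 3, 4, 5 and 6. With rosiglitazone it was 0.74, 1.36, 1.89, 1.77 and 0.03. In liver the direction changed between days for 4 of the 5 compounds: retinoic acid gave -0.98, 1.99, 1.45, 0.58 and -0.13, Wy-14643 gave 1.03, 1.44, -0.36, -0.88 and 0.76, and rosiglitazone alone stayed positive, at 1.32, 1.73, 1.13, 0.42 and 0.52. The liver groups held 2 or 3 rats, and single rats of a group lay far apart, as with Bmal1 at -1.01, 2.83 and 2.93 in the retinoic acid livers of day 3.

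**Figure D3:**
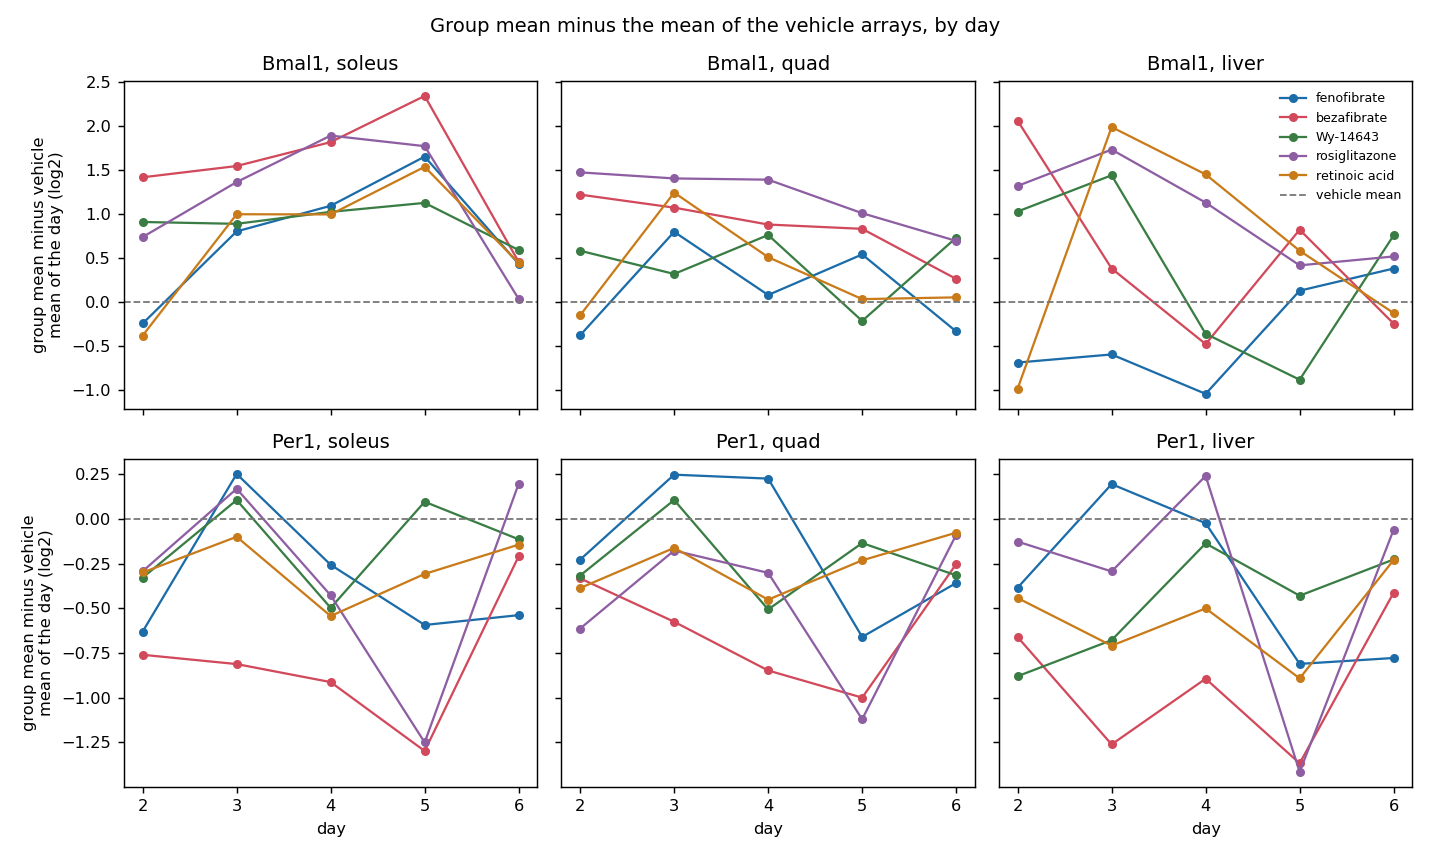
Group means minus the mean of the vehicle arrays of the same day (log2, y axis) by day (x axis) for Bmal1 (upper row) and Per1 (lower row) in soleus, quad and liver; the dashed line is the vehicle mean. In soleus the Bmal1 lines of bezafibrate and rosiglitazone reach 2.34 and 1.89 and end at 0.45 and 0.03 on day 6.

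A steady trend over days was tested as another contrast of the arrays that the choice of the genes used. None of 30 slopes per day (2 genes, 3 tissues, 5 compounds) passed limma's test at an adjusted p of 0.05, and 0 of 30 had an unadjusted p under 0.05. The steepest was -0.42 ± 0.24 per day for Bmal1 with bezafibrate in liver (adjusted p = 0.779, limma). Few features of any kind had a slope: 0.0% were called in soleus for each compound and in quad for bezafibrate, Wy-14643, rosiglitazone and retinoic acid, 1.55% for fenofibrate in quad, and in liver 9.38% for retinoic acid, 0.446% for fenofibrate, 0.196% for rosiglitazone, 0.158% for Wy-14643 and 0.0598% for bezafibrate. At an unadjusted p under 0.05, between 368 and 5057 features had a slope in a comparison.

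The 2 muscles were then compared with each other. The quantity is the difference of 2 differences from vehicle that the choice of the genes used, so its test is not independent of that choice. The Bmal1 difference from vehicle in soleus minus that in quad was 0.66 ± 0.34 for bezafibrate, 0.61 ± 0.35 for fenofibrate, 0.47 ± 0.37 for Wy-14643 and 0.38 ± 0.35 for retinoic acid, and -0.03 ± 0.36 for rosiglitazone. For Per1 the differences lay between -0.20 and 0.14. None of these 10 passed (lowest adjusted p = 0.234 by limma, for Bmal1 with fenofibrate), and 0 of 10 had an unadjusted p under 0.05. This fit did not pair the 2 muscles of a rat, whose ratios ran together, so its SEs leave the pairing unused. For Per1 with bezafibrate the SE was 0.22 in this fit and 0.09 with the rat as a block. With the rat as a block, over 111 rats that gave both muscles, the Bmal1 differences for bezafibrate and fenofibrate were 0.55 ± 0.21 and 0.52 ± 0.22 (unadjusted p = 0.01 and 0.0186, adjusted p = 0.483 and 0.187, limma) and made no call. The Per1 differences in that fit were -0.23 ± 0.09 for bezafibrate and -0.25 ± 0.09 for fenofibrate (unadjusted p = 0.00841 and 0.00659, adjusted p = 0.466 and 0.138, limma), also with no call. In the fit without the block, 5.33% of all features were called for fenofibrate, 0.0708% for retinoic acid, 0.049% for bezafibrate, 0.0381% for rosiglitazone and 0.0054% for Wy-14643. The shares in the fit with the block are not given here.

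EDL gave a view of the genes mostly at lower doses, in arrays that the choice of the genes did not use. The 4 EDL rats at 100 mkd of rosiglitazone are an exception in part: their soleus and quad, and the liver of 3 of them, were among the arrays used, and the ratios of a rat ran together between tissues, so that group's test is not independent of the choice. Its ratios could be tested only against the pool, which counts as 1 control sample and leaves out the control's own spread. With rosiglitazone at 100 mkd on day 4, Bmal1 was 1.09, 1.18, 1.54 and 1.89, so all 4 rats lay above the pool, by 1.42 ± 0.35 (adjusted p = 0.00158, limma). With Wy-14643 at 10 mkd it ran from -0.26 through 0.61 to 1.74 and rose by 0.72 ± 0.20 (9 of 12 arrays above 0, adjusted p = 0.0034, limma). That rise rested on day 3, where the 3 rats were at 1.09, 1.74 and 1.74, and without day 3 it was 0.45 (adjusted p = 0.137, limma). Bmal1 was not called for rosiglitazone at 10 mkd (0.53 ± 0.23), bezafibrate (0.44 ± 0.23), retinoic acid (0.23 ± 0.21) or fenofibrate (0.18 ± 0.23).

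Per1 in EDL was lower than the pool with rosiglitazone at 10 mkd, at -0.47 ± 0.13 (7 of 9 arrays below 0, adjusted p = 0.00539, limma), and with bezafibrate, at -0.36 ± 0.13 (7 of 9 arrays, adjusted p = 0.0343, limma). Both calls ended when 1 day was left out: the rosiglitazone value was -0.28 without day 5 and the bezafibrate value -0.29 without day 4. The other EDL values of Per1 were -0.32 ± 0.20 for rosiglitazone at 100 mkd, -0.16 ± 0.12 for Wy-14643, -0.11 ± 0.12 for retinoic acid and 0.03 ± 0.13 for fenofibrate, with no call. Single vehicle rats of the other 3 tissues averaged below their pool for both genes, and whether EDL would show the same offset was not tested. A call against the pool was common: 47.1% of features for Wy-14643, 40.4% for retinoic acid, 37.2% for rosiglitazone at 10 mkd, 34.6% for fenofibrate, 33.9% for bezafibrate and 33.1% for rosiglitazone at 100 mkd. The members' 4 calls in 12 tests are a share of the same size as that background.

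Where the pool cancels, neither gene was called in EDL. The higher minus the lower rosiglitazone dose on day 4 gave 0.62 ± 0.53 for Bmal1 and 0.12 ± 0.31 for Per1 (adjusted p = 0.999 for both, limma), with 0.0108% of features called. Each low-dose compound against the mean of the others on days 4 to 6 gave 0 calls in 10 tests and 1 unadjusted p under 0.05, which was Per1 with rosiglitazone at 10 mkd (-0.35 ± 0.15, adjusted p = 0.439, limma). In these comparisons 0.0% of features were called for fenofibrate and bezafibrate, 0.656% for rosiglitazone, 0.086% for retinoic acid and 0.0161% for Wy-14643.

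Single vehicle rats differed widely in both genes. Around the means of the days, the SD of Bmal1 was 0.951 among 35 vehicle soleus arrays, 0.833 among 63 of quad and 1.12 among 73 of liver, while the median feature had 0.348, 0.186 and 0.155. Per1 had 0.615, 0.530 and 0.843 in the same order. Bmal1 was therefore more variable than 98.2% of features in soleus, 99.1% in quad and 99.8% in liver, and Per1 than 86.3%, 97.2% and 99.5%. Without the 3 soleus vehicle arrays in doubt, Per1 in soleus was above 97.2% of features. Among the other clock genes, Per2 (the paralogue of Per1), Dbp (a PAR bZIP output factor) and Nr1d1 (REV-ERB alpha) also varied widely in vehicle livers, with SDs of 0.813, 0.829 and 0.929, whereas Clock, the partner of BMAL1, had 0.110. This spread of single rats exceeds many of the compound differences above, but those are differences of group means, with SEs of 0.14 to 0.35. The time of sampling, which the sources used here do not give, was not tested.

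The genes moved in opposite directions among rats of 1 group. After the mean of compound, dose and day was taken out, Pearson's r of Bmal1 with Per1 was -0.419 over 97 treated and -0.477 over 35 vehicle soleus arrays. In quad it was -0.267 over 88 treated and -0.424 over 63 vehicle arrays, and in liver -0.476 over 74 treated and -0.454 over 73 vehicle arrays. Adjusted over the 7 relations computed, the permutation p (100000 resamples within groups, two-sided) was 0.00063 and 0.0102 in soleus, 0.0409 and 0.000875 in quad, and 0.00063 and 0.00063 in liver, treated first. Spearman's rho was -0.400 and -0.356 in soleus, -0.272 and -0.376 in quad, and -0.495 and -0.353 in liver, with adjusted permutation p of 0.00224, 0.0544, 0.047, 0.00563, 0.00119 and 0.00563. Leaving out the 2 arrays farthest from the median of Bmal1 made r -0.242 in vehicle soleus, where the permutation p became 0.209, so that relation rested on those arrays. In the other 5 muscle and liver sets it stayed between -0.277 and -0.447. EDL had -0.260 over 54 treated arrays, with an adjusted permutation p of 0.205 and rho of -0.266 (0.143). Since 1 rat gave several tissues, these relations are not independent of each other.

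**Figure D4:**
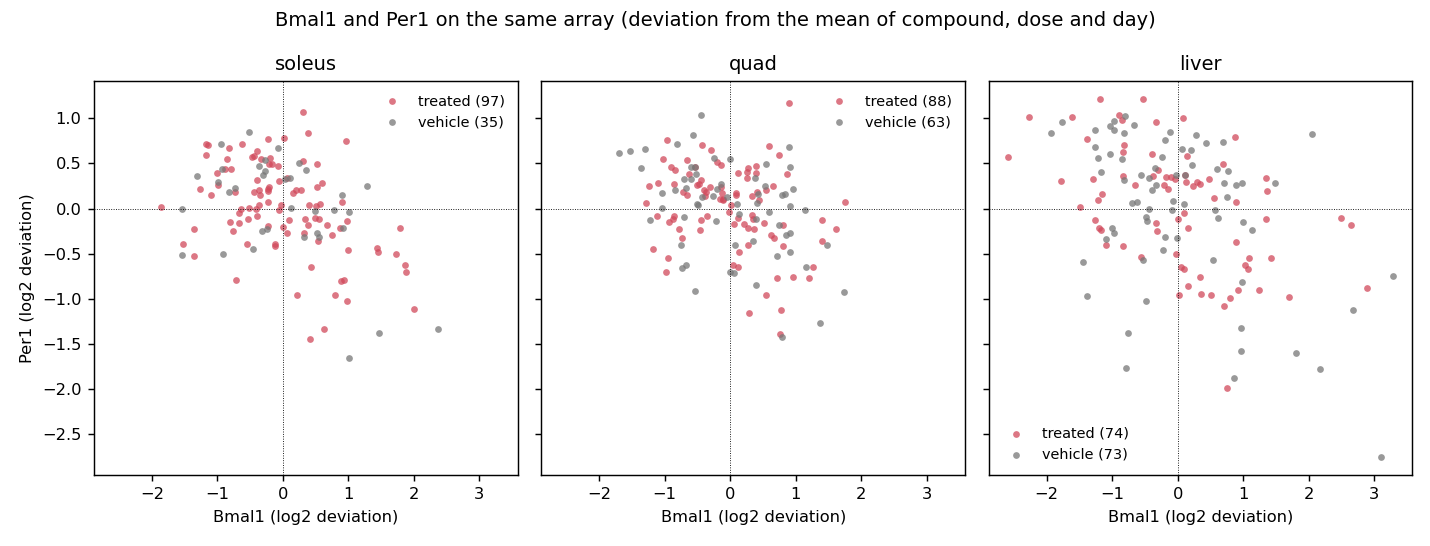
Each point is 1 array, with the deviation of Bmal1 (x axis) and Per1 (y axis) from the mean of its compound, dose and day on the log2 scale, for treated (red) and vehicle (grey) arrays of soleus, quad and liver. The clouds slope downward in all 3 tissues, with r between -0.267 and -0.477.

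Among vehicle arrays the sign was the same on 12 of the 13 days and tissues with at least 6 arrays. On day 2 r was -0.771 in soleus (n = 6), -0.768 in quad (n = 14) and -0.799 in liver (n = 14). It was 0.025 in quad on day 3 (n = 8), the exception, and -0.213 in liver on the same day (n = 14). The range in quad was from -0.768 to 0.025 and in liver from -0.799 to -0.213.

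The ratio of each gene in 1 tissue ran with its ratio in another tissue of the same rat. Over 111 rats, the deviations of Bmal1 in soleus and quad had r = 0.724 (rho 0.690), over 106 rats those in soleus and liver had 0.721 (0.716) and over 120 rats those in quad and liver had 0.701 (0.661). For Per1 the values were 0.886 (0.861), 0.817 (0.795) and 0.790 (0.801). Each of the 6 relations had a permutation p of 1e-05, the smallest that 100000 resamples can give, before and after adjustment, for r and for rho. Without the 2 rats farthest from the median, r stayed between 0.687 and 0.870. Treated rats alone and vehicle rats alone gave 0.689 and 0.806 for Bmal1 in soleus and quad, 0.803 and 0.588 in soleus and liver, and 0.789 and 0.630 in quad and liver. For Per1 they gave 0.884 and 0.902, 0.797 and 0.852, and 0.784 and 0.796. The relation thus stood in both sets of rats.

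Few features were shared between tissues to this degree. The median feature had r of 0.068 between soleus and quad, 0.044 between soleus and liver and 0.039 between quad and liver. Per1 ranked 21 of 18326, 47 of 18232 and 58 of 18284 features, and Bmal1 ranked 156, 111 and 122. Of the other clock genes, Npas2, the paralogue of Clock, ranked 41, 46 and 30, and Per2 ranked 72, 123 and 93, while Clock itself had r of -0.071, -0.096 and 0.180.

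Single rats, picked after their values were seen, show the range. The bezafibrate rat 1257 of day 3 had Bmal1 at 2.61 in soleus, 2.53 in quad and 2.87 in liver. Per1 was -2.83, -2.42 and -2.51 in the same tissues of the bezafibrate rat 1265 of day 5, and -1.59, -1.69 and -1.76 in the vehicle rat 1068 of day 6. In these 3 rats the tissues gave like values, but others differed, as fenofibrate rat 1154 of day 5 with Bmal1 at 1.66 in soleus, 0.47 in quad and 0.18 in liver. Of the 4 EDL rats given rosiglitazone at 100 mkd, rat 1373 had Bmal1 at 2.02 in liver, 1.91 in soleus, 1.73 in quad and 1.89 in EDL. Rat 1374 had -0.51, 0.22, 0.76 and 1.09, with muscle above liver. The liver array of rat 1376, in doubt by its marker genes, gave Per1 at 1.04, against -0.17 in soleus, -0.26 in quad and 0.04 in EDL of that rat.

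**Figure D5:**
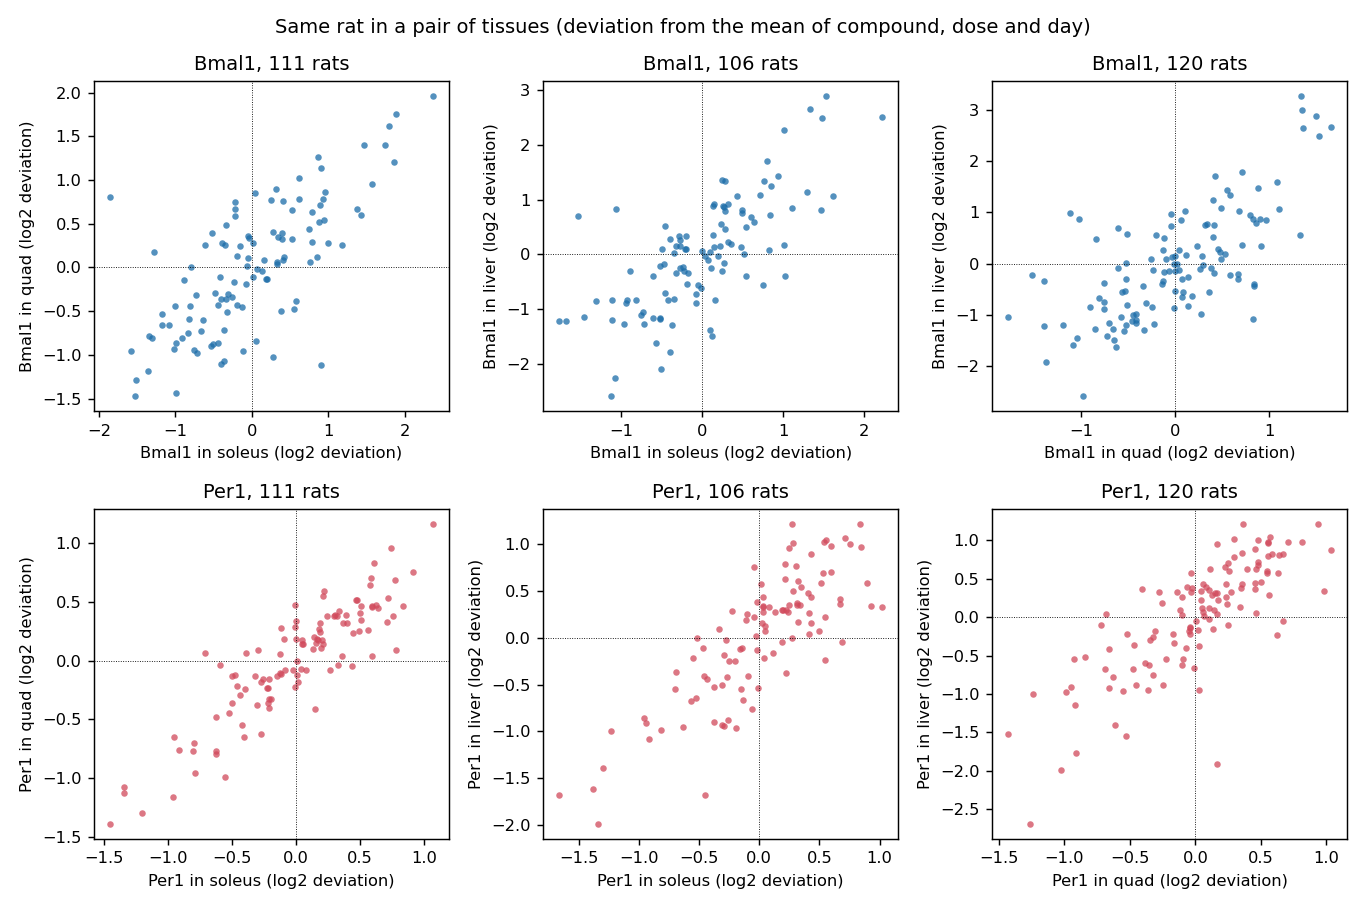
Each point is 1 rat with arrays of both tissues named on the axes, given as the deviation from the mean of its compound, dose and day (log2) for Bmal1 (upper row) and Per1 (lower row). Points rise together in all 6 panels, with r from 0.701 to 0.886.

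The named genes whose deviations were most like those of Bmal1, by the mean Pearson r over 132 soleus, 151 quad and 147 liver arrays among 9919 genes, were Npas2 (0.810), Pnrc1 (0.593), Chka (0.583), Dapk1 (0.581) and Litaf (0.557). The most opposed were Tef (-0.775), a PAR bZIP output factor, Per2 (-0.733), Dbp (-0.728), Wee1 (-0.637), a cell cycle kinase, and Usp2 (-0.629), a ubiquitin protease. In liver alone Bmal1 had r of -0.922 with Dbp and -0.921 with Tef. Arrays of 1 rat and a common pool per day underlie all these values, which are given with no test.

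Per1 was most like Tob2 (0.794), Usp2 (0.635), Klf9 (0.615), a glucocorticoid-induced factor, Med26 (0.534) and Plekhf1 (0.527). Its most opposed genes were Npas2 (-0.481), Lpar6 (-0.440), Rab38 (-0.418), Bmal1 (-0.413) and Efna1 (-0.401). Per2 had a mean r of 0.525 with Per1, and the glucocorticoid-induced Tsc22d3 (GILZ) 0.50, with 0.753 in liver alone.

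The other clock genes were counted from a list of 25, of which 19 had a probe. The 15 comparisons of a gene share vehicle arrays and rats, so they are not independent. Among the activators, Npas2 was above vehicle in 15 of 15 comparisons and rose in 4: with bezafibrate (0.41 ± 0.10, adjusted p = 0.0178) and rosiglitazone (0.47 ± 0.10, adjusted p = 0.00112) in soleus, and with rosiglitazone in quad (0.47 ± 0.11, adjusted p = 0.00288) and liver (0.71 ± 0.18, adjusted p = 0.00298), all by limma. Clock was called in none and stayed between -0.05 and 0.06. Among the repressors, Per2 was below vehicle in 15 of 15 and fell in 5, by -0.85 ± 0.21 with rosiglitazone in quad and by -1.17 ± 0.27 with bezafibrate in liver. The output factors Dbp and Tef were below vehicle in 15 of 15 and fell in 4 and 5. Nr1d1 was above vehicle in 13 of 15, was called in none and lay between -0.06 and 0.35.

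By tissue, 2 of 95 pairs of a clock gene and a compound were called in soleus, both higher, 6 in quad (2 higher, 4 lower) and 40 in liver (4 higher, 36 lower). These are 2.11% of the soleus pairs, 6.32% of those in quad and 42.1% of those in liver. Of all features, single compounds gave calls for 0.191% to 3.33%, 0.0163% to 6.86% and 21.3% to 40.2% in the same order. The share of all features pooled over the compounds is not given here. Markers of cell types moved in liver too: 7 of 8 macrophage markers were lower with fenofibrate and 7 of 8 with Wy-14643, as were 4 of 4 and 3 of 4 endothelium markers. Of 7 hepatocyte markers, 4 were lower with retinoic acid, 3 with each of fenofibrate, bezafibrate and Wy-14643 and 1 with rosiglitazone, with which 5 of 10 skeletal muscle markers were higher. The rosiglitazone livers include the doubted array of rat 1376, whose muscle markers exceeded those of same-day livers by 2.13 on the log2 scale. The marker count without that array is not given here. The part of the cell type markers in the liver values of the clock genes was not tested. The median difference of the 19 genes lay between -0.05 and 0.02 in soleus, between -0.02 and 0.01 in quad and between -0.30 and -0.06 in liver, while the median over all features lay within 0.02 of 0. In quad the 4 falls came with rosiglitazone (Per2, Dbp, Tef and Usp2) and the rises were Npas2 with rosiglitazone and Nfil3, a repressor of D-box genes, with fenofibrate (0.50 ± 0.14, adjusted p = 0.02, limma). Nfil3 went the other way in liver, where it fell with fenofibrate, bezafibrate, Wy-14643 and rosiglitazone. In liver Bhlhe40 (DEC1), a clock repressor, fell with Wy-14643 (-0.73 ± 0.15), bezafibrate (-0.73 ± 0.15) and rosiglitazone (-0.65 ± 0.15) and rose with retinoic acid (0.52 ± 0.15). Its paralogue Bhlhe41 fell with Wy-14643 (-1.30 ± 0.23, adjusted p = 8.45e-07, limma) and retinoic acid (-1.27 ± 0.23). Csnk1d, a kinase of the PER proteins, fell with 4 compounds in liver, by up to -0.25 ± 0.03 with Wy-14643. No clock gene was called for a slope over days (0 of 285 tests by limma, 28 with an unadjusted p under 0.05) or for soleus minus quad (0 of 95, 3 unadjusted).

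In EDL, 32 of 114 pairs (28.1%) were called against the pool, below the 33.1% to 47.1% of all features called there. Tef and Usp2 fell in all 6 groups, Tef by -0.31 ± 0.07 with fenofibrate up to -0.57 ± 0.11 with rosiglitazone at 100 mkd, and Usp2 by -0.52 ± 0.07 with Wy-14643 up to -1.01 ± 0.13 with rosiglitazone at 100 mkd. Npas2 rose in 4 of 6, most with rosiglitazone at 100 mkd (0.62 ± 0.16, adjusted p = 0.00202, limma). Nr1d1 rose with Wy-14643 (0.33 ± 0.09, adjusted p = 0.00371, limma) and bezafibrate (0.32 ± 0.11, adjusted p = 0.0202, limma) and was not called in the other groups.

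Since Per1 also responds to glucocorticoids and to immediate early signals, 16 of 20 listed genes of those kinds were measured. They gave 12 calls of 80 in soleus (6 higher, 6 lower), 5 in quad (3 higher, 2 lower) and 31 in liver (10 higher, 21 lower), or 15.0%, 6.25% and 38.8%. Of all features, single compounds gave calls for 0.191% to 3.33% in soleus, 0.0163% to 6.86% in quad and 21.3% to 40.2% in liver. The liver share of the list lies inside the range of single compounds, but it pools all 5 compounds. The share of all features pooled in that way is not given here. Klf9 fell in soleus with 4 compounds, by -0.29 ± 0.08 with fenofibrate to -0.36 ± 0.08 with rosiglitazone, but rose in liver with fenofibrate (0.28 ± 0.09) and Wy-14643 (0.22 ± 0.09) and fell there with retinoic acid (-0.28 ± 0.09); the 2 rises were picked out after their values were seen. Tsc22d3 fell in liver with 4 compounds, by -0.54 ± 0.14 to -0.57 ± 0.14, and Dusp1, a phosphatase induced by stress signals, fell in liver with all 5, by -0.56 ± 0.16 to -0.96 ± 0.17. Pdk4, a kinase that is also a PPAR target, accounted for 8 of the rises, the largest 1.85 ± 0.11 with Wy-14643 in liver. The part of these genes in the Per1 values was not tested.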

How the data were processed

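The authors deposited 1 table of log10 ratios for 23653 probes on 484 two-channel arrays, in which the limit of 2 on the log10 scale marks a 100-fold ratio. Normalization, scale and direction of the ratio are not given in the sources used here: the log10 scale was read from the values, and rat over pool was taken because Acot1, Cyp4a1 and Ehhadh, known PPARA targets, lay above 0 in all measured fenofibrate, bezafibrate and Wy-14643 livers (14 or 15 each) against 24 to 31 of 73 vehicle livers. Ratios were multiplied by 3.32 to give log2 values; missing values made up 0.907%, and 699 values sat at the limit, none of them of Bmal1 or Per1. Probe names came from the platform table, matched to the rat gene table: 15260 probes had 1 gene, 17 several and 8376 none. Probes of a gene were averaged. Intensities were not used; precision is limited by how many arrays a group holds.

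Features measured on 80% or more of a fit's arrays were fitted with limma 3.58.1 (R 4.3.3), with 1 mean per compound, dose and day, contrasts within days weighted equally, and Benjamini-Hochberg adjustment over all features at 0.05. Relations used deviations from those means, permuted within groups (100000 resamples; Python 3.11.15, numpy 2.4.6, pandas 2.3.3, scipy 1.17.1); matplotlib 3.10.9 drew the figures. The fit and the permutation were tested on simulated data. Rat numbers come from the labels and join tissues of the same rat, which is where the pairing of the replicate block comes from. The members, the gene lists, the rule for arrays in doubt and the comparisons were chosen with earlier results of these data known. Named list genes are up to 6 per comparison with the smallest adjusted p among those that passed, and members named with their values where they did not; for likeness, the first 5 on each side. Where nothing says otherwise, a rat is 1 sample of its group.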

Additional observations from a re-analysis of the deposited data

Results flagged for a closer look

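By Dixon's criterion, chance flags about 1 in 20 independent groups of normal values. Groups of different tissues hold many of the same rats and are not independent, so no excess over that rate can be read here. Of 96 groups of 4 to 10 arrays examined for Bmal1 or Per1, 10 held 1 array far from the others by that criterion. For Bmal1 these were fenofibrate rat 1141 in quad on day 2 (1.05, the others -1.35 to -0.95), bezafibrate rat 1257 in soleus on day 3 (2.61, the others 0.12 to 0.51) and fenofibrate rat 1154 in soleus on day 5 (1.66, the others 0.29 to 0.48). For Per1 they were rosiglitazone rat 1376 in EDL on day 4 (0.043, the others -0.47 to -0.43), bezafibrate rat 1265 on day 5 in quad (-2.42, the others -0.61 to -0.51) and in soleus (-2.83, the others -1.05 to -0.74), and bezafibrate rat 1271 in quad on day 6 (-1.63, the others -0.22 to -0.05). The remaining Per1 arrays were fenofibrate rat 1148 in quad on day 3 (0.26, the others -0.13 to -0.07), Wy-14643 rat 1212 in soleus on day 5 (0.45, the others -0.20 to -0.11) and vehicle rat 1068 in soleus on day 6 (-1.59, the others 0.20 to 0.32). Several of these rats were as far out in their other tissues: rat 1271 had Per1 at -1.76 in soleus and -2.58 in liver, and rat 1141 had Bmal1 at 1.81 in soleus and 1.38 in liver.

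In other cases every array of 1 group lay above the vehicle mean of its day and every array of another lay below, a difference that was not tested, in groups of 3 or 4 rats. In liver with Wy-14643, Bmal1 was 1.03 above vehicle on day 2 and 0.76 above on day 6, while day 5 gave -0.88. With retinoic acid in liver, day 4 gave 1.45 and day 2 gave -0.98. With Wy-14643 on day 5, Bmal1 stood at 1.13 in soleus and -0.88 in liver. For Per1 with fenofibrate in quad, day 3 gave 0.25 and day 4 gave 0.23, while day 5 gave -0.66. On day 4 with fenofibrate, Per1 stood at 0.23 in quad and -0.26 in soleus. With rosiglitazone in soleus, Per1 was 0.20 on day 6, while days 4 and 5 gave -0.43 and -1.25.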

How the results depend on the processing

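The differences of the members from vehicle kept their sign under 12 alternatives each (other array centring, scale, weights and filter, each probe alone, without doubted arrays, without each day, against the pool), except Bmal1 with fenofibrate in quad, whose lowest value was -0.02, and Bmal1 against the pool in liver with Wy-14643 (-0.11) and bezafibrate (0.00). Each member has 1 probe and no missing value. Probes alone and the filter for complete values thus could not change its differences from vehicle. Slopes near 0 turned sign: with array weights, Per1 for bezafibrate in soleus (-0.033) and liver (-0.15); with arrays scaled, Bmal1 for Wy-14643 in soleus (0.01) and Per1 for retinoic acid in liver (-0.01); and with scaling, weights and without doubted arrays, Bmal1 for fenofibrate in quad (0.048, 0.042 and 0.10) and Per1 for rosiglitazone in quad (-0.003, -0.028 and -0.018). Of the soleus minus quad differences, Per1 for Wy-14643 turned with the rat as a replicate block (-0.018, and -0.007 without doubted arrays as well), Bmal1 for rosiglitazone with weights (0.038), without day 2 (0.14) and without day 6 (0.12), and Per1 for retinoic acid without day 4 (0.002). The block made or ended no call of the members; rosiglitazone on day 3 has no rat with both muscles and is absent from it.

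In EDL against the pool, Per1 with fenofibrate turned without day 5 (-0.002), and Bmal1 with bezafibrate passed with weights (0.44). Per1 with bezafibrate no longer passed with scaling (-0.32), weights (-0.18), without day 4 (-0.29) or without day 6 (-0.34), Bmal1 with Wy-14643 without day 3 (0.45), and Per1 with rosiglitazone at 10 mkd without day 5 (-0.28). Against the other compounds, Bmal1 with retinoic acid turned with weights (0.005). The dose difference of Per1 turned with weights (-0.13), and leaving out single arrays gave -0.022 to 0.994 for Bmal1 and -0.108 to 0.491 for Per1.

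Calls of clock genes in soleus numbered 6 with scaling, 7 with weights, 6 without doubted arrays, 4 without day 3, 1 without day 4, 1 without day 5 and 13 against the pool. In quad they numbered 14 with weights, 3 without day 2, 3 without day 3, 3 without day 4, 11 without day 6 and 16 against the pool. Calls of glucocorticoid and immediate early genes numbered 7 without day 4, 6 without day 5 and 26 against the pool in soleus, and 8 with weights, 2 without day 3, 2 without day 4, 2 without day 5 and 12 against the pool in quad. The r of Bmal1 and Per1 was -0.246 in treated quads after array medians were subtracted (permutation p = 0.0507) and -0.242 in vehicle soleus without the 2 farthest arrays. The percentile of the Per1 spread in vehicle soleus moved to 97.1 with the median absolute deviation and 97.2 without doubted arrays. The cause of these changes was not tested.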
